A study of Mus musculus with 4 samples.

Results

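Sinus macrophage spots were the spots of the popliteal lymph node (PLN) sections richest in transcripts of 8 macrophage genes, C1qa, C1qb, C1qc, Cd5l, Cd209b, Siglec1, Cd163 and Mrc1. A spot is a barcoded position of a Visium capture area on which the RNA of a small region, usually of several cells, is captured, and unique molecular identifiers (UMIs) let each captured RNA molecule be counted once. Among spots with at least 1000 UMIs, the summed UMIs of the 8 genes were divided by the UMIs of the spot, and the top 15% of each capture area were taken as members. This gave 309 sinus macrophage spots of 2057 spots that passed the UMI minimum and of 6119 spots under tissue, and the other 1748 spots served for comparison. Because these values chose the spots, the levels of the 8 genes in them are descriptive and carry no test.

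PLNs drain the ankle and were taken from male C57BL/6 mice, wild-type (WT) or carrying a TNF transgene (TNF-Tg) that causes chronic inflammatory-erosive arthritis. The WT area held sections of 10 PLNs at 5.5 months of age, the Early area 6 PLNs of TNF-Tg mice at 5.5 months with early arthritis, and Advanced areas 1 and 2 each 6 PLNs of TNF-Tg mice at 8.5 to 9 months with advanced arthritis. The nodes of all groups were found by Evan's blue dye given into the hindpaw. Nodes of several mice shared an area and could not be separated here, WT and Early had 1 area each, and age differed along with disease stage, so that age and stage cannot be told apart between Advanced and the other groups.

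Lymph arriving from the joint runs through the subcapsular, cortical and medullary sinuses, channels lined by lymphatic endothelium and populated by macrophages that take up particles, microbes and dying cells. Subcapsular sinus macrophages carry Siglec1 (CD169) and pass antigen to follicular B cells, while medullary sinus macrophages carry in addition scavenger and lectin receptors such as MARCO and the SIGN-R1 protein encoded by Cd209b, and degrade what they take up. C1qa, C1qb and C1qc encode the chains of complement C1q, Cd5l a secreted scavenger-domain protein of tissue macrophages, Cd163 the receptor for haemoglobin bound to haptoglobin, and Mrc1 the mannose receptor.

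The 150 bases upstream of the start of 4 genes are shown because 2 of them, C1qb and Cd5l, helped choose the spots and the other two, Marco and Ccl8, were among the genes with the largest difference outside the score. They are from RefSeq on GRCm38.p6, written 5′ to 3′ on the strand of the gene, and capitals mark GAGGAA, the core of sites for the myeloid factor PU.1, and TGCTGA, a part of the MAF recognition element, each searched on both strands (TTCCTC and TCAGCA on the other). C1qb lies at chr4:136886201-136886350 on the minus strand, Cd5l at chr3:87357731-87357880 on the plus strand, Marco at chr1:120505025-120505174 on the minus strand and Ccl8 at chr11:82115035-82115184 on the plus strand, and none of these windows overlaps an annotated gene of GENCODE M21.
C1qb: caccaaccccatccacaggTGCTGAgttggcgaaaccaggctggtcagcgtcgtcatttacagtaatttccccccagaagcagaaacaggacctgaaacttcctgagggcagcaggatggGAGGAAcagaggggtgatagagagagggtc
Cd5l: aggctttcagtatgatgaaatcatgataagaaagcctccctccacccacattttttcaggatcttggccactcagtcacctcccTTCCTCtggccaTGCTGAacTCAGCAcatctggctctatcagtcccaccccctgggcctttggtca
Marco: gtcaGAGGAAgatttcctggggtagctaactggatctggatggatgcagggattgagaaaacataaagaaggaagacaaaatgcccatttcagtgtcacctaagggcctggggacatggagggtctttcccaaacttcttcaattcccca
Ccl8: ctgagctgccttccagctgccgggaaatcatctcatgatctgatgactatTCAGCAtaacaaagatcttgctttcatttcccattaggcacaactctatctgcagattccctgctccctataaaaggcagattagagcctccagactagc
GAGGAA occurred 1 time each before C1qb, Cd5l and Marco and 0 times before Ccl8, and TGCTGA 1 time before C1qb, 2 times before Cd5l, 0 times before Marco and 1 time before Ccl8. Of 27025 promoters of the same length, 14.4% held GAGGAA and 9.87% held TGCTGA. Among genes tested, the shares were 13.6% and 6.74%, among genes higher in the sinus macrophage spots 15.9% and 9.33%, and among genes lower in them 16.8% and 7.30%. Of 10 genes looked up, 7 had a promoter entry.

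Sinus macrophage spots numbered 41 on the WT area, 90 on Early, 87 on Advanced area 1 and 91 on Advanced area 2, beside 232, 511, 492 and 513 other spots. Their summed counts came to 470383, 1260544, 524132 and 447367 UMIs. They were deeper than the others, with medians of 5691, 10670, 3939 and 3285 UMIs per spot against 3252.5, 5031, 3070 and 2952, so levels are given as UMIs per 10000 UMIs and tests used sums per area. Spots of different areas can carry the same barcode, which names an array position, and any 2 areas shared 464 to 1050 of them. The fluorescent reporter features had 0 UMIs and were left out.

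The score had no gap at the 15% mark. The lowest sinus macrophage spot had 0.641% of its UMIs in the 8 genes on WT and the next spot below 0.626%, and the same pair of values was 0.374% and 0.373% on Early, 0.270% and 0.269% on Advanced area 1 and 0.447% and 0.439% on Advanced area 2. The median score was 0.858%, 0.527%, 0.354% and 0.656% in the sinus macrophage spots and 0.183%, 0.0815%, 0.0907% and 0.108% in the others. A spot that ranked in the top 15% on Advanced area 1 could thus fall short of that rank on WT.

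Cd209b contributed the most, between 37.5% and 45.2% of the score UMIs of an area. It stood at 32.5 UMIs per 10000 in the sinus macrophage spots of WT, 26.3 on Early, 16.9 on Advanced area 1 and 29.8 on Advanced area 2, against 8.91, 4.30, 4.09 and 5.39 in the others, and at least 95.4% of the sinus macrophage spots of an area held a Cd209b UMI. C1qb stood at 15.8, 9.96, 6.32 and 11.3 in the sinus macrophage spots, with C1qc and C1qa close to it, and Mrc1 at 3.76, 1.17, 2.00 and 2.86. Cd5l varied most between areas among the genes with more than a few UMIs, from 9.97 on WT and 9.95 on Advanced area 2 down to 2.70 on Early and 2.81 on Advanced area 1. Siglec1 was low throughout, at 1.91, 0.762, 0.801 and 1.27, and Cd163 was nearly absent, with 0, 6, 1 and 2 UMIs in all sinus macrophage spots of the areas. The spots are thus defined in practice by Cd209b, C1q and Cd5l, with little from Siglec1 and almost nothing from Cd163. Reads of Cd209b may be shared with its close paralogs, which makes its level uncertain.

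Each score gene could be tested only where it had no part in the ranking. When spots were ranked on the other 7 genes, the gene left out was higher in the top 15% on all 4 areas for each of the 7 genes with enough counts to test. The log2 difference was 2.72 ± 0.14 (SE) for Cd5l, 2.01 ± 0.13 for Cd209b, 1.80 ± 0.13 for C1qb, 1.79 ± 0.13 for C1qc, 1.62 ± 0.12 for C1qa, 1.39 ± 0.14 for Mrc1 and 0.83 ± 0.17 for Siglec1. Even Siglec1, with the smallest difference, passed the quasi-likelihood test of edgeR (adjusted p = 0.000451, Benjamini-Hochberg over all genes). Cd163 had too few UMIs to be tested.

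**Figure D1:**
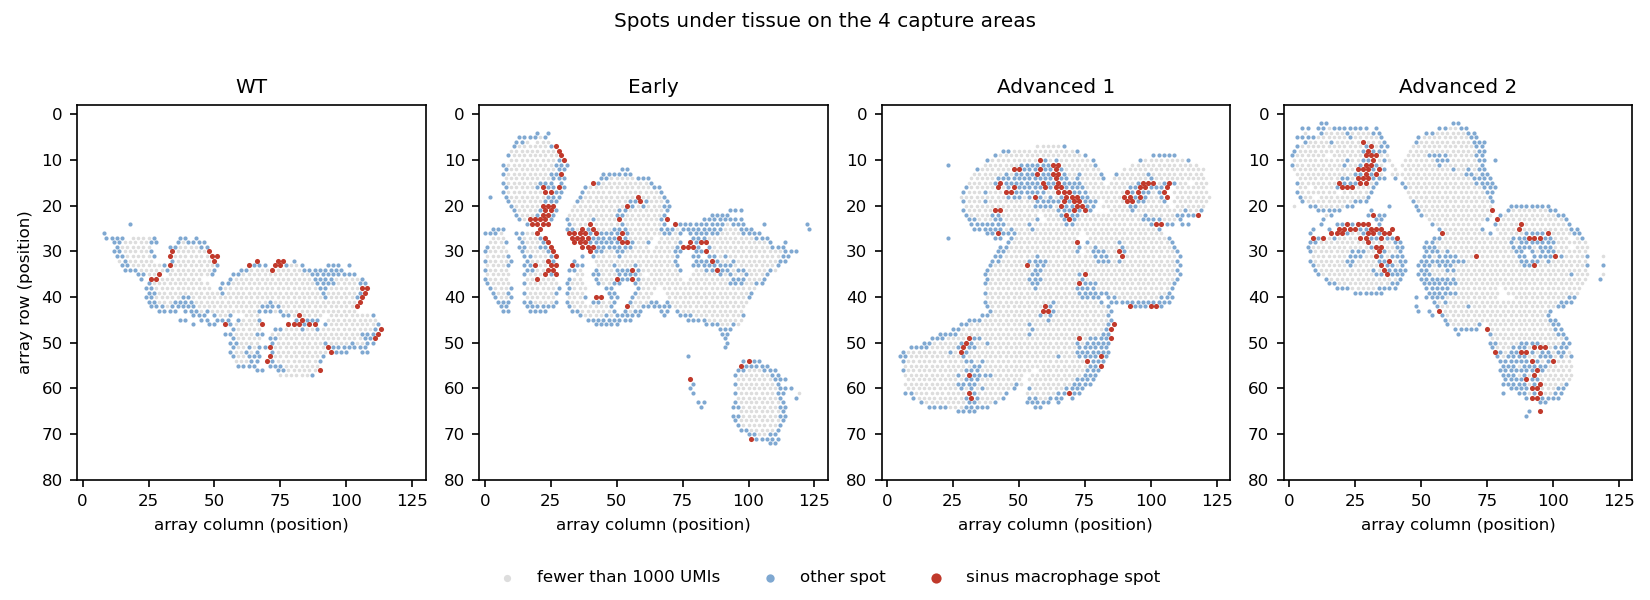
Positions of spots on the 4 capture areas, by array column and array row, with sinus macrophage spots in red, other spots with at least 1000 UMIs in blue and spots with fewer than 1000 UMIs in grey. The red spots lie in runs and clumps, at the rim on WT, where 19.5% of them had tissue on all sides, and mostly inside the tissue on the Advanced areas, where 82.8% and 70.3% did.

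Sinus macrophage spots lay next to each other, as the map of the areas shows. Neighbours were counted only among spots with at least 1000 UMIs. Of the neighbouring spots of a sinus macrophage spot, 48.7% were themselves members on WT, 48.6% on Early, 35.8% on Advanced area 1 and 41.9% on Advanced area 2, against 8.79%, 11.9%, 14.96% and 12.4% of the neighbours of other spots. They formed 17, 33, 34 and 32 separate clumps, the largest of 6 spots on WT and of 17 to 23 on the TNF-Tg areas, and 7, 21, 16 and 20 of them had no member beside them. The share with tissue on all 6 sides was 19.5% on WT, 47.8% on Early, 82.8% on Advanced area 1 and 70.3% on Advanced area 2. Among the other spots it was 32.8%, 35.03%, 64.0% and 50.1%. Sinus macrophage spots were thus more often at the tissue edge than the others on WT and less often on the TNF-Tg areas, a description of 4 areas that was not tested. It covers only spots above the UMI minimum, not the whole node. These were 32.8% of the spots under tissue on WT, 40.4% on Early, 28.7% on Advanced area 1 and 33.9% on Advanced area 2. Of the 273 kept on WT, 8 sinus macrophage spots and 76 others were inner ones.

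Outside the score, the sinus macrophage spots differed from the other spots in 880 genes that were higher and 488 that were lower of 10481 tested (edgeR's quasi-likelihood test with area as a block, adjusted p under 0.05), that is in 8.4% and 4.66% of genes. The median log2 difference over all genes tested was -0.01. Macrophage, scavenger, lysosome, haem and lymphatic endothelial genes were higher, and follicular B cell genes were lower. With DESeq2 on the same sums, 475 were higher and 178 lower. With Early left out, 436 genes were higher and 194 lower, and 431 and 181 of them were among those called with all areas. In a spot, more cells of a type and more RNA per cell cannot be told apart.

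**Figure D2:**
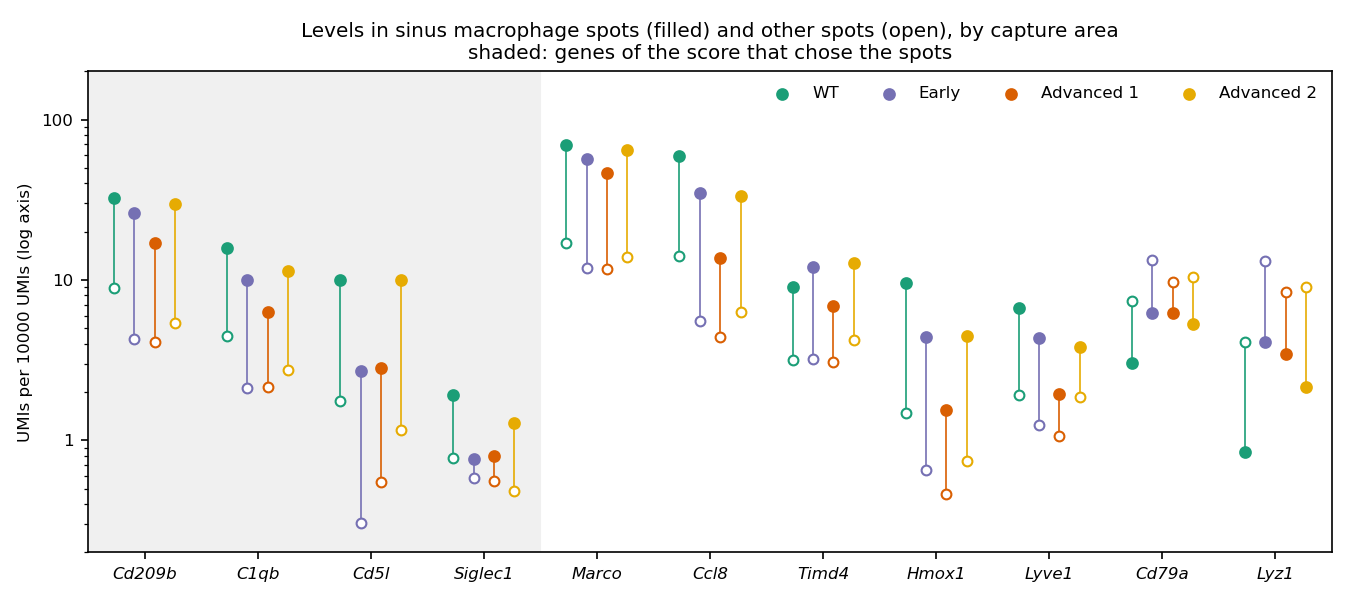
Level of 11 genes in sinus macrophage spots (filled) and other spots (open) of each capture area, in UMIs per 10000 UMIs on a log axis, with a line joining the 2 values of an area. The 4 shaded genes belong to the score that chose the spots, and of the others Marco, Ccl8, Timd4, Hmox1 and Lyve1 were higher and Cd79a and Lyz1 lower in the sinus macrophage spots of all 4 areas.

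All 14 other macrophage identity genes that could be tested were higher, with a median log2 difference of 1.26 against -0.01 over all genes. The list held 16 genes, of which Lilra5 had too few counts to test and Vsig4, the complement receptor of Kupffer cells, had 0 UMIs in the sinus macrophage spots. Marco (ENSMUSG00000026390, chromosome 1, 120474538 to 120505024 on GRCm38), the scavenger receptor of medullary sinus macrophages and of some sinus-lining endothelium, stood at 69.9 UMIs per 10000 on WT, 56.8 on Early, 46.2 on Advanced area 1 and 64.8 on Advanced area 2, against 17.0, 11.9, 11.7 and 13.9 in the other spots. The lowest area of sinus macrophage spots lay well above the highest area of other spots, and the log2 difference was 2.17 ± 0.13 (SE), or 4.49-fold (edgeR adjusted p = 4.96e-16). Timd4, a receptor for phosphatidylserine on dying cells, stood at 9.04, 12.0, 6.91 and 12.7 against 3.15, 3.23, 3.09 and 4.20, a 3.02-fold difference with no overlap of the areas. Clec4n, encoding Dectin-2, was 3.39-fold higher, Folr2, a folate receptor of resident macrophages, 4.41-fold, Adgre1, encoding F4/80, 2.72-fold, and the transcription factor Spic 2.42-fold. Aif1, at 0.76 ± 0.14 on the log2 scale, and Cd14, at 0.94 ± 0.26, differed less. Both were higher on 3 of 4 areas, and Cd14 did not pass without WT (0.60) or without Early (0.77). Csf1r, the receptor for the survival factor CSF1, was 1.97-fold higher.

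Scavenger and dead-cell uptake receptors were higher in 11 of 13 tested, with a median log2 difference of 1.14, and none was lower. Msr1, encoding scavenger receptor A, stood at 1.76 on WT, 1.103 on Early, 1.35 on Advanced area 1 and 1.19 on Advanced area 2 against 0.567, 0.492, 0.557 and 0.361. Its areas did not overlap, and the difference was 2.75-fold. The receptors Axl and Mertk, which bind dying cells through bridging proteins, were 2.42-fold and 2.53-fold higher, and Pros1, the bridging protein S, 2.78-fold. Stab1, a scavenger receptor of macrophages and lymphatic endothelium, was 2.20-fold higher.

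Genes of iron and haem handling were higher in 11 of 13 tested, with a median of 0.83 on the log2 scale, and Tfrc, the transferrin receptor, was lower (-0.94 ± 0.23), although it did not pass without Early (-0.82). Hmox1 (ENSMUSG00000005413, chromosome 8, 75093621 to 75100589), which encodes the haem-degrading enzyme heme oxygenase 1, had the largest difference of the genes named outside the score. It stood at 9.54 UMIs per 10000 on WT, 4.43 on Early, 1.54 on Advanced area 1 and 4.49 on Advanced area 2, against 1.48, 0.655, 0.462 and 0.747 in the other spots. Each area showed the difference, with the smallest on Advanced area 1, and it came to 2.55 ± 0.14 on the log2 scale, or 5.84-fold (edgeR adjusted p = 8.56e-17). Slc40a1, the iron exporter ferroportin, was 2.57-fold higher, Blvrb, a biliverdin reductase, 1.81-fold, Hfe, a regulator of iron uptake, 2.11-fold and Ftl1, the ferritin light chain, 1.78-fold. Fth1, the ferritin heavy chain, stood at 77.9, 79.0, 36.6 and 40.7 against 40.0, 67.3, 53.1 and 44.0. It was thus above the other spots on WT and Early and below them on both Advanced areas, and its log2 difference of 0.18 ± 0.16 did not pass (edgeR adjusted p = 0.528).

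Complement genes outside C1q were higher in 7 of 12 tested, with a median of 0.48. C5ar1, the receptor for C5a, was 2.31-fold higher, Cfp, encoding properdin, 1.68-fold, Itgb2, the beta chain of complement receptor 3, 1.43-fold and Cfb, encoding factor B, 1.37-fold. C5ar1 did not pass without Early (log2 1.04), and Cfb did not pass without WT (0.35) or without Advanced area 2 (0.42). C3, the central component, stood at 27.5, 45.4, 41.7 and 36.8 against 28.4, 33.0, 35.8 and 35.0, and its log2 difference of 0.22 ± 0.13 did not pass (edgeR adjusted p = 0.279). Fc receptor genes were higher in 5 of 6, led by the high-affinity IgG receptor Fcgr1 at 3.80-fold, with Fcgr3 at 2.07-fold and the shared signalling chain Fcer1g at 1.98-fold, while the inhibitory receptor Fcgr2b did not pass (0.31 ± 0.15).

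Lysosome and cathepsin genes were higher in 15 of 20 tested, with a median of 0.70, and none was lower. Psap, the precursor of the saposins, stood at 58.2 UMIs per 10000 on WT, 46.7 on Early, 39.4 on Advanced area 1 and 77.2 on Advanced area 2, against 34.4, 23.4, 27.1 and 29.5. The areas did not overlap, and the difference was 1.96-fold. The proteases Ctsb, Ctsc and Lgmn were 2.40-fold, 2.56-fold and 2.57-fold higher, and Grn, encoding progranulin, 2.44-fold. Lyz2, a lysozyme of all myeloid cells, stood at 26.5, 80.7, 36.0 and 36.0 against 23.1, 62.9, 48.1 and 36.8 and did not pass (0.07 ± 0.13). Lipid handling genes were higher in 6 of 11, among them Apoe at 1.58-fold, the cholesterol exporters Abca1 and Abcg1 at 1.76-fold and 1.75-fold, and the lipid droplet coat gene Plin2 at 1.89-fold.

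Of 10 genes of MHC class II presentation, 0 were higher and 5 were lower, with a median of -0.35. The class II chains themselves, H2-Aa, H2-Ab1 and H2-Eb1, did not pass, with log2 differences of -0.13, -0.14 and -0.17. The lower members were H2-Ob (2.02-fold) and H2-Oa (1.66-fold), chains of the peptide-loading modulator of B cells, H2-DMb2 (1.55-fold), the activator Ciita (1.48-fold) and the invariant chain Cd74 (1.30-fold). Ciita and Cd74 did not pass without Early, nor did Cd74 without Advanced area 2.

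Chemokine genes divided, with 8 of 16 tested higher and 4 lower. Ccl8 (ENSMUSG00000009185, chromosome 11, 82115185 to 82116799), a chemokine of tissue macrophages, stood at 59.4 UMIs per 10000 on WT, 34.6 on Early, 13.7 on Advanced area 1 and 33.4 on Advanced area 2, against 14.2, 5.55, 4.41 and 6.32 in the others. It was higher on every area, although Advanced area 1 lay below the level of the other spots of WT, and the difference was 2.24 ± 0.14 on the log2 scale, or 4.72-fold (edgeR adjusted p = 1.83e-15). Its neighbours in the monocyte-attracting cluster on chromosome 11, Ccl12, Ccl7 and Ccl2, were 4.31-fold, 3.45-fold and 2.08-fold higher. Ccl6 and Ccl9 were 2.94-fold and 2.82-fold higher, Cxcl10, an attractant of activated T cells, 2.51-fold and Pf4 1.66-fold. Ccl6 fell from a log2 difference of 1.55 to 0.96 without WT, and Pf4 did not pass without Early (0.71) or without Advanced area 2 (0.44). The lower members were Cxcl13, the attractant of B cells to follicles (1.56-fold), Ccl20 (2.48-fold), Ccl22 (2.29-fold) and Ccl5 (1.42-fold). Cxcl13 did not pass without Advanced area 2 (-0.43), Ccl22 did not pass without WT (-0.97), Ccl5 did not pass without WT (-0.35) or Advanced area 2 (-0.45), and Ccl20 had a log2 difference of -3.62 without Early.

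Among signals of the macrophage niche, 5 of 11 tested were higher and 2 lower, with a median of 0.25. The higher ones include Csf1r, which is also on the macrophage identity list. Csf1 was 1.69-fold higher, the lymphotoxin beta receptor Ltbr 2.07-fold and the TNF receptors Tnfrsf1a and Tnfrsf1b 1.72-fold and 1.39-fold, while the lymphotoxin chains Lta and Ltb were 1.99-fold and 1.31-fold lower. Tnf itself stood at 0.0425, 0.174, 0.134 and 0.0447 against 0.115, 0.243, 0.255 and 0.197, and its log2 difference of -0.86 ± 0.31 did not pass (edgeR adjusted p = 0.061). Tnfrsf1b, Lta and Ltb did not pass without Early (0.29, -0.95 and -0.39), nor did Ltb without WT or either of Ltb and Tnfrsf1b without Advanced area 2. Of 10 interferon-stimulated genes tested, Bst2 was higher (1.52-fold) and Ifi27l2a lower (1.32-fold), beside 8.4% higher and 4.66% lower of all genes tested. Ifi27l2a did not pass on leaving out WT, Early or Advanced area 1. The study's pair of co-stimulatory genes, Alcam and Cd6, did not pass, with log2 differences of 0.31 ± 0.21 and -0.63 ± 0.25.

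**Figure D3:**
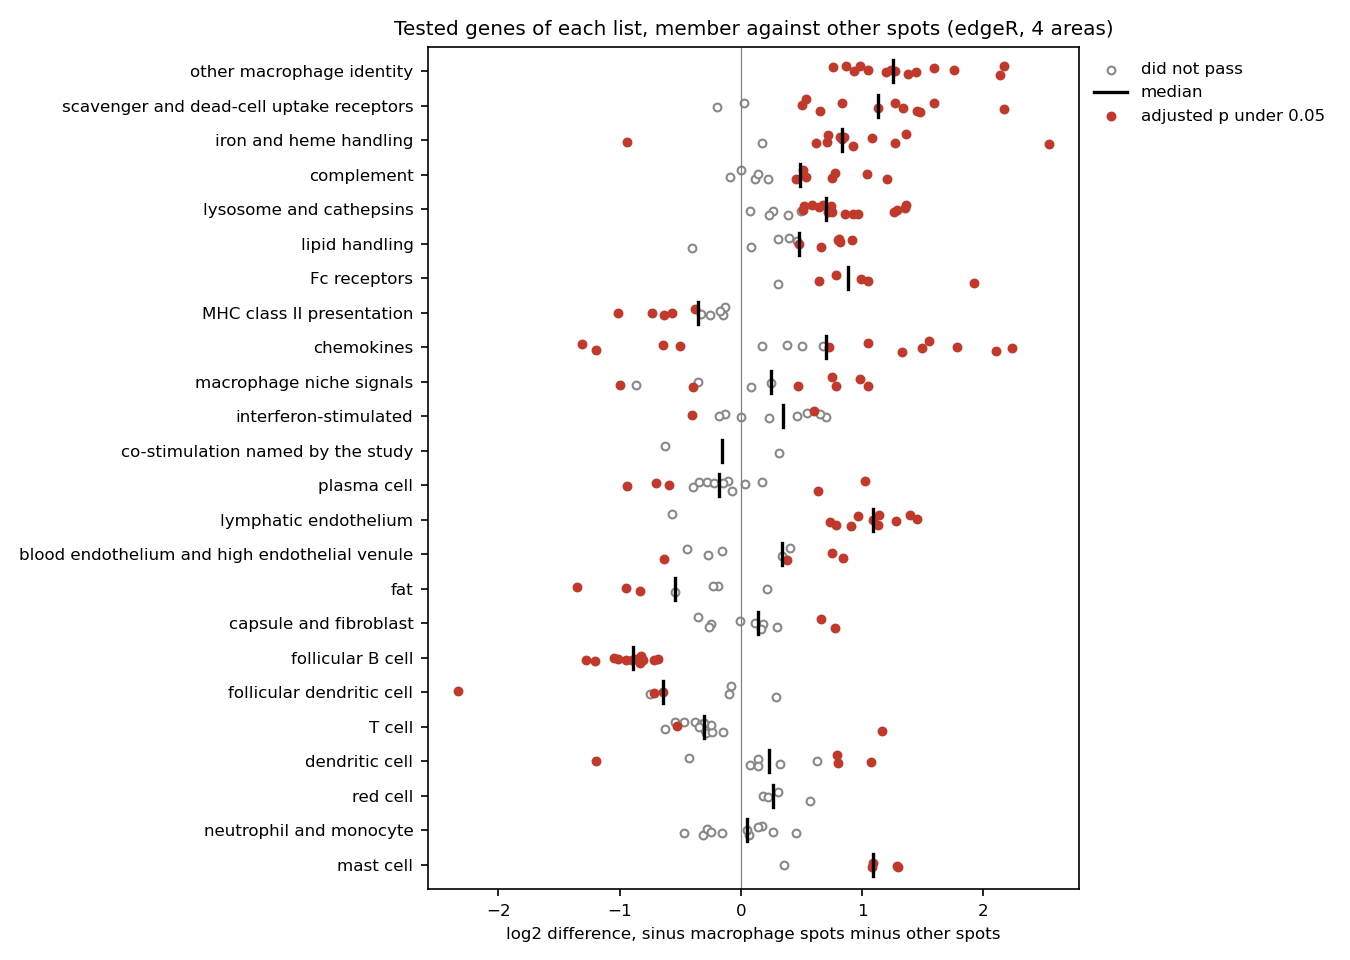
Log2 difference between sinus macrophage spots and other spots for each tested gene of the gene lists, 1 row per list, with genes past an adjusted p of 0.05 in colour and the median of each list as a bar. The other macrophage identity list has its median at 1.26 and the lymphatic endothelium list at 1.09, while the follicular B cell list has its median at -0.89, beside -0.01 over all genes tested, which is not drawn.

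Markers of other cells of the sinus were higher in the same spots. Of 11 lymphatic endothelial genes tested, 10 were higher and 0 lower, with a median of 1.09, and their summed level ran from 13.3 to 24.1 UMIs per 10000 over the areas of sinus macrophage spots against 7.79 to 10.3 in the others. Lyve1, the hyaluronan receptor of lymphatic endothelium and of some macrophages, stood at 6.72 on WT, 4.36 on Early, 1.95 on Advanced area 1 and 3.80 on Advanced area 2, against 1.91, 1.25, 1.07 and 1.85. Sinus macrophage spots of Advanced area 1 were barely above the other spots of WT, and the difference over the areas was 2.74-fold. Prox1, the transcription factor that defines lymphatic endothelium, was 2.21-fold higher, Stab2 2.13-fold, Flt4, the receptor for VEGF-C, 1.73-fold and Itga2b 2.42-fold. Marco, Lyve1 and Stab1 mark both macrophages and lymphatic endothelium, and which of the 2 carried them was not tested.

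Mast cell genes were higher in 4 of 5 tested, with a median of 1.09, among them the proteases Cma1 (2.45-fold), Tpsb2 (2.44-fold) and Mcpt4 (2.12-fold), while the receptor Kit did not pass (0.35 ± 0.25). Blood endothelial genes were higher in 3 of 9, namely Cdh5, Plvap and Pecam1 at 1.80-fold, 1.68-fold and 1.30-fold, the last of which did not pass without Early or Advanced area 2. Glycam1, a product of high endothelial venules, was 1.55-fold lower. Of 10 dendritic cell genes, Siglech, of plasmacytoid dendritic cells (2.11-fold), Zbtb46 (1.74-fold) and Clec9a (1.74-fold) were higher and Ccl22 was lower, and Zbtb46 did not pass without Early and Clec9a did not pass without any 1 of the 3 TNF-Tg areas. Of 15 T cell genes tested, Cd4 was higher (2.24-fold) and Ccr7 lower (1.44-fold), beside 8.4% higher and 4.66% lower of all genes tested. Mouse T cells and some dendritic cells express Cd4. Ccr7 lost its call without WT, Early or Advanced area 2.

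Follicular genes were lower. All 12 follicular B cell genes passed in that direction, with a median of -0.89, and their summed level ran from 16.0 to 34.95 UMIs per 10000 in the sinus macrophage spots against 34.9 to 64.7 in the others. Cd79a, a chain of the B cell receptor, stood at 3.04 on WT, 6.22 on Early, 6.22 on Advanced area 1 and 5.30 on Advanced area 2, against 7.41, 13.3, 9.72 and 10.4. The areas did not overlap, and the difference was 1.93-fold. Cr2, encoding complement receptor 2, was 2.42-fold lower, Ighd 1.77-fold, Cd22 1.75-fold and Ms4a1 1.64-fold. Of 7 follicular dendritic cell genes, Coch, Mfge8 and Cxcl13 were lower and Clu did not pass (-0.08 ± 0.13).

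Plasma cell genes did not move together, with 2 of 14 higher, 3 lower and a median of -0.18. Over all genes tested, 8.4% were higher and 4.66% lower. Igkc, the most abundant, stood at 352, 163, 278 and 272 UMIs per 10000 in the sinus macrophage spots and at 396, 182, 279 and 300 in the others, and its log2 difference of -0.08 ± 0.13 did not pass. Ighg1 stood at 88.9, 9.27, 43.8 and 26.3 against 85.4, 3.45, 11.8 and 17.7, a 2.04-fold difference, with the areas overlapping widely. Slpi, a protease inhibitor, was 1.56-fold higher. Mzb1 and Irf4 were 1.505-fold and 1.62-fold lower, and Igha was 1.92-fold lower although on Advanced area 2 it stood higher, at 2.53 against 2.23. Red cell genes (0 of 4) and neutrophil and monocyte genes (0 of 11) did not pass in either direction, nor did 8 of 10 capsule and fibroblast genes, with Col3a1 and Lum 1.58-fold and 1.72-fold higher, of which Col3a1 did not pass without Early. The direction of Hbb-bs turned with the setting, since it passed as higher without Advanced area 2, at 0.90 on the log2 scale, and as lower with the top 10% of spots (-0.61) and with the score of the 5 genes without C1q (-1.30). Of 7 fat genes tested 0 were higher and 3 were lower, Cfd (2.56-fold), Adipoq (1.92-fold) and Cidec (1.78-fold). The summed level of the fat markers was 4.42, 5.24, 4.52 and 18.1 in the sinus macrophage spots against 12.6, 6.33, 12.3 and 14.9 in the others, so it was higher in the sinus macrophage spots on Advanced area 2 and lower on the other areas. Adipoq and Cidec did not pass without WT or without Advanced area 1, and without Advanced area 2 Adipoq did not pass while Fabp4 did, at -0.51.

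Beyond the lists, 700 of the higher genes and 449 of the lower ones had 200 or more UMIs and 1 direction on all 4 areas, and of these the 12 with the largest differences in each direction were taken. The higher ones were Hmox1, Bpifb3, Ccl8, Ms4a8a, Marco, Folr2, Ccl12, Srpx2, Clec1b, Fcgr1, Syndig1l and Aoah, of which Ms4a8a and Ccl12 belong to families whose reads may be shared. Bpifb3, of a family of lipid-binding proteins, stood at 0.425 UMIs per 10000 on WT, 0.857 on Early, 0.515 on Advanced area 1 and 1.52 on Advanced area 2, against 0.0739, 0.134, 0.0836 and 0.427, and its log2 difference was 2.35 ± 0.20. Each area showed the difference, and Advanced area 2 was the highest in both kinds of spot. Clec1b, the receptor for podoplanin known as CLEC-2, was 4.02-fold higher, Aoah, the enzyme that inactivates bacterial lipopolysaccharide, 3.65-fold and Srpx2, a secreted protein, 4.07-fold.

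The lower ones were Coch, Il22ra2, St6galnac2 (ENSMUSG00000057286), Lyz1, Il12a, Gm34908, Siglecg, Ifi213, BE692007, Ubxn11, Cfd and Pik3c2b. Lyz1, a lysozyme that shares much of its sequence with Lyz2, stood at 0.850 UMIs per 10000 on WT, 4.08 on Early, 3.45 on Advanced area 1 and 2.15 on Advanced area 2, against 4.08, 13.1, 8.40 and 9.09. It was lower on every area, most of all on WT, and its log2 difference was -1.73 ± 0.14 (edgeR adjusted p = 3.69e-12). Il22ra2, which encodes the soluble binding protein of IL-22, was 5.04-fold lower, Coch, a matrix protein made by follicular dendritic cells, 5.05-fold, Il12a, a subunit of IL-12 and IL-35, 3.05-fold, and Siglecg, an inhibitory lectin of B cells, 2.84-fold. Gm34908 and BE692007 did not pass without Early (-1.099 and -1.25). Limits common to these contrasts were depth and position. Among inner spots alone, with tissue on all 6 sides, 161 genes were higher and 71 lower of 5741 tested, 161 and 64 of them also called in all spots, and 50 of 95 called genes named here and tested there passed.

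**Figure D4:**
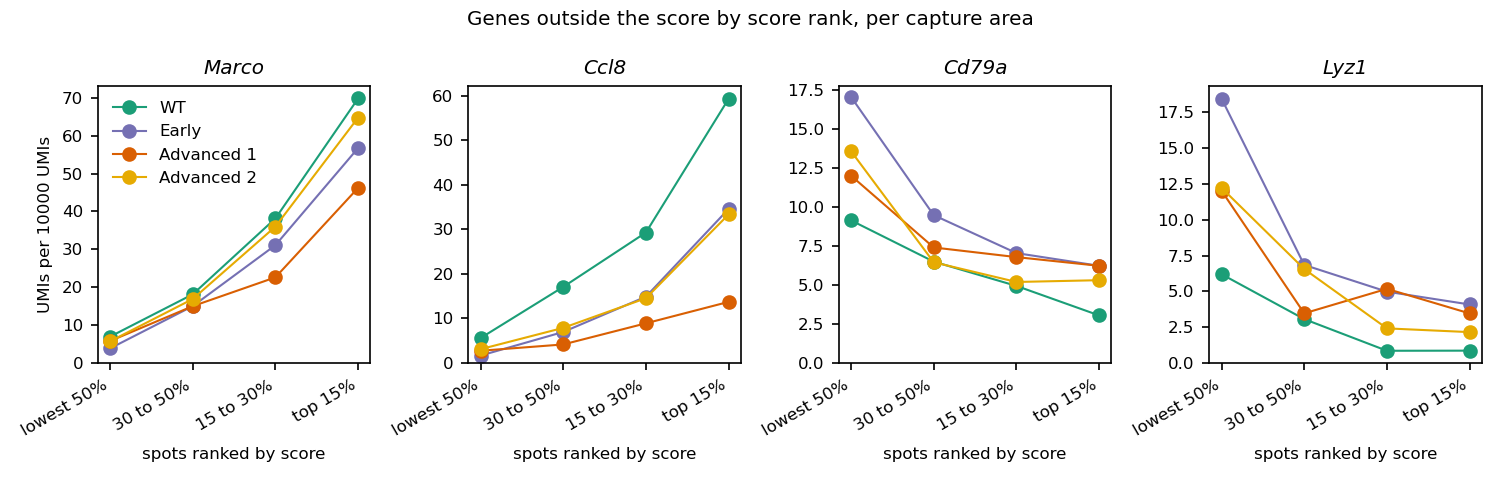
Level of Marco, Ccl8, Cd79a and Lyz1, in UMIs per 10000 UMIs, in spots grouped by their rank on the score within an area, from the lowest 50% to the top 15%, with 1 line per area. Marco and Ccl8 climb over the ranks on all 4 areas, and Cd79a and Lyz1 decline from the lowest 50% to the top 15%.

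The differences were graded over the score. Marco stood at 6.91, 18.1, 38.2 and 69.9 UMIs per 10000 on WT in the lowest 50% of spots, the next 20%, the next 15% and the top 15%, and at 5.76, 14.97, 22.6 and 46.2 on Advanced area 1. Ccl8 ran in the same order, from 5.56 to 59.4 on WT, from 1.62 to 34.6 on Early, from 2.71 to 13.7 on Advanced area 1 and from 3.06 to 33.4 on Advanced area 2. Spots just under the 15% mark thus carried an intermediate level of both genes, as the plot of levels by rank shows. Cd79a went the other way, from 9.13 to 3.04 on WT and from 17.1 to 6.22 on Early, but on Advanced area 2 its level in the top 15%, 5.30, was close to the 5.18 of the next 15%. Lyz1 went from 6.19 to 0.850 on WT and from 18.5 to 4.08 on Early, and on Advanced area 1 it stood at 3.46 in the ranks from 30% to 50% and at 5.17 in those from 15% to 30%.

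Among the sinus macrophage spots themselves, Spearman's rho between the share of UMIs in the 3 C1q genes and that in Marco was 0.358 over 41 spots of WT, 0.401 over 90 of Early, 0.105 over 87 of Advanced area 1 and 0.173 over 91 of Advanced area 2. Between Cd209b and Marco it was 0.109, 0.416, 0.352 and 0.417, and between C1q and Cd209b 0.26, 0.113, -0.05 and -0.106. These are descriptions over spots of 1 library each, which share tissue, neighbours and depth, and all 3 pairs were bound by the rule, since C1q and Cd209b enter the score that had to be high.

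Whether the sinus macrophage spots at the tissue edge differed from those inside was tested on the 3 TNF-Tg areas, since WT had only 8 inner ones. Of 5605 genes tested, 3 were higher at the edge (0.0535%) and 3 lower (0.0535%), and 423 had an unadjusted p under 0.05. The higher ones were Car3 (log2 3.83 ± 0.46) and Cfd (2.37 ± 0.38), both abundant in fat cells, and Wfdc17 (1.36 ± 0.27). The lower ones were Sfrp2 (-1.57 ± 0.27), a modulator of Wnt signalling, Cdk11b (-1.20 ± 0.17) and Ikbkb (-0.98 ± 0.15), a kinase of the NF-kappaB pathway. Marco (-0.17 ± 0.13), Timd4 (-0.07 ± 0.14), Hmox1 (-0.13 ± 0.20) and Lyve1 (0.02 ± 0.17) did not pass, and of the macrophage identity genes 0 of 13 did. The calls changed when an area was left out. Without Advanced area 2 there were 0 in either direction (382 at an unadjusted p under 0.05), without Early 2 higher and 0 lower, and without Advanced area 1 21 higher and 4 lower.

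Between the disease groups, the score genes are again a description. The share of UMIs in the 8 genes over all sinus macrophage spots was 86.7 per 10000 on WT, 58.1 on Early, 40.7 on Advanced area 1 and 74.1 on Advanced area 2. Values of the Advanced areas lay on both sides of Early, so no order of the groups can be read from them. Cd5l differed the most between the 2 Advanced areas, at 2.81 and 9.95. Marco, which had no part in the rule, stood at 46.2 and 64.8 on them, against 56.8 on Early and 69.9 on WT, and it did not pass in either contrast.

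The question of what changed in these spots from early to advanced arthritis was addressed on the sums of the sinus macrophage spots of each area. Of 9035 genes tested, 6 were higher in Advanced than in Early (0.0664%) and 16 lower (0.177%), and 371 had an unadjusted p under 0.05 (edgeR's quasi-likelihood test, 1 residual degree of freedom). Of 15 chemokine genes tested, 5 were lower, with a median of -0.96 against 0.02 over all genes, and of 14 macrophage identity genes 1, Cd14, was lower. With the top 20% of spots in place of 15%, 0 genes passed in either direction (251 at an unadjusted p under 0.05), and DESeq2 called 1 higher and 0 lower (31 at an unadjusted p under 0.05). The calls therefore depend on where the spots were delimited and on the tool. The error of a gene came mostly from the spread over all genes, so it says little of how its own Advanced areas agreed.

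Ccl20, the attractant of cells with the receptor CCR6, had 0 UMIs in the sinus macrophage spots of WT, 105 on Early, 4 on Advanced area 1 and 0 on Advanced area 2. Its log2 difference between Advanced and Early was -4.34 ± 0.60 (edgeR adjusted p = 3.49e-09). Cxcl13 stood at 4.70 UMIs per 10000 on WT, 18.2 on Early, 6.33 on Advanced area 1 and 3.82 on Advanced area 2 (log2 -1.90 ± 0.42). Both Advanced areas were below Early, and WT lay between them. In the other spots of the same areas Cxcl13 stood at 4.39, 26.4, 12.2 and 9.73, so that Early was also the highest there.

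Saa3, an acute-phase protein of inflamed macrophages and stroma, stood at 1.83, 10.8, 3.68 and 1.30 (log2 -2.17 ± 0.39), and Clec4e, encoding the receptor Mincle, at 0.128, 0.698, 0.0572 and 0.246 (-2.31 ± 0.47). Early was the highest area for both, and also in the other spots. Saa3 stood there at 0.362, 3.70, 1.65 and 1.03 and Clec4e at 0.0822, 0.666, 0.259 and 0.345. Ccl7 stood in the sinus macrophage spots at 4.44, 4.50, 0.649 and 2.15 (-1.77 ± 0.37), Ccl2 at 1.74, 3.01, 0.973 and 1.41 (-1.41 ± 0.35) and Cxcl10 at 0.659, 2.15, 0.382 and 1.25 (-1.49 ± 0.33). For these 3 chemokines Advanced area 2 stood between Advanced area 1 and Early, and against Advanced area 2 alone the differences were -1.15, -1.17 and -0.86. Against Advanced area 1 alone and Advanced area 2 alone, respectively, the differences were -1.60 and -3.14 for Saa3 and -3.61 and -1.58 for Clec4e. Cd14, the co-receptor for lipopolysaccharide, stood at 0.744, 0.539, 0.153 and 0.112 (-2.06 ± 0.48), with both Advanced areas below WT and Early. Nupr1, a stress-induced regulator, stood at 0.617, 1.55, 0.458 and 0.469 (-1.80 ± 0.35).

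The haemoglobin genes Hba-a1 and Hbb-bs were also lower in Advanced than in Early (-2.17 ± 0.36 and -1.76 ± 0.41), but the Advanced areas disagreed, and with a minimum of 2000 UMIs per spot Hbb-bs was at 0.029 and did not pass. Hbb-bs stood at 3.04 UMIs per 10000 on WT, 14.1 on Early, 7.57 on Advanced area 1 and 0.961 on Advanced area 2. Its log2 difference was -0.94 against Advanced area 1 alone and -3.95 against Advanced area 2 alone, with -1.31 and -4.82 for Hba-a1. The share of red cells in the sections was not tested.

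The higher genes were Igha, Vwf, Inmt, Reln, Fcna and C6. Igha, the constant region of IgA, stood at 2.72 on WT, 0.484 on Early, 3.34 on Advanced area 1 and 2.53 on Advanced area 2 (log2 2.54 ± 0.42), with Early the lowest and the other areas close together. Reln, encoding reelin, a product of lymphatic endothelium, stood at 0.404, 0.436, 0.592 and 2.15 (1.55 ± 0.37), and Vwf, of blood endothelium, at 0.191, 0.103, 0.191 and 1.03 (2.44 ± 0.51). Both rested on Advanced area 2, and their differences were 0.39 and 0.83 against Advanced area 1 alone. Inmt, a methyltransferase, stood at 1.49, 0.524, 1.30 and 2.44 (1.75 ± 0.37). Fcna, encoding ficolin A, had 63, 2, 4 and 24 UMIs, and C6, a component of the membrane attack complex, 104, 1, 0 and 14, so both were nearly absent on Early and on Advanced area 1. Iron and haem genes (0 of 13), scavenger receptors (0 of 13) and lysosomal genes (0 of 20) did not pass in either direction, with medians of -0.17, 0.09 and -0.01. Over all genes tested, 0.0664% were higher and 0.177% lower, so 0 calls in lists of this size do not set them apart.

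Ferritin, IgG and co-stimulation genes did not pass between Advanced and Early. Fth1 stood at 77.9 on WT, 79.0 on Early, 36.6 on Advanced area 1 and 40.7 on Advanced area 2, with both Advanced areas below both others, and its log2 difference was -1.09 ± 0.55 (edgeR adjusted p = 0.999). In the other spots Fth1 stood at 40.0, 67.3, 53.1 and 44.0. Ighg1, at 88.9 on WT and 9.27 on Early and at 43.8 and 26.3 on the Advanced areas, had a difference of 1.86 ± 0.59 from Early (edgeR adjusted p = 0.305). Alcam and Cd6 had differences of 0.79 ± 0.43 and 0.92 ± 0.67 on few UMIs (16, 36, 22 and 28 over the areas for Alcam).

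**Figure D5:**
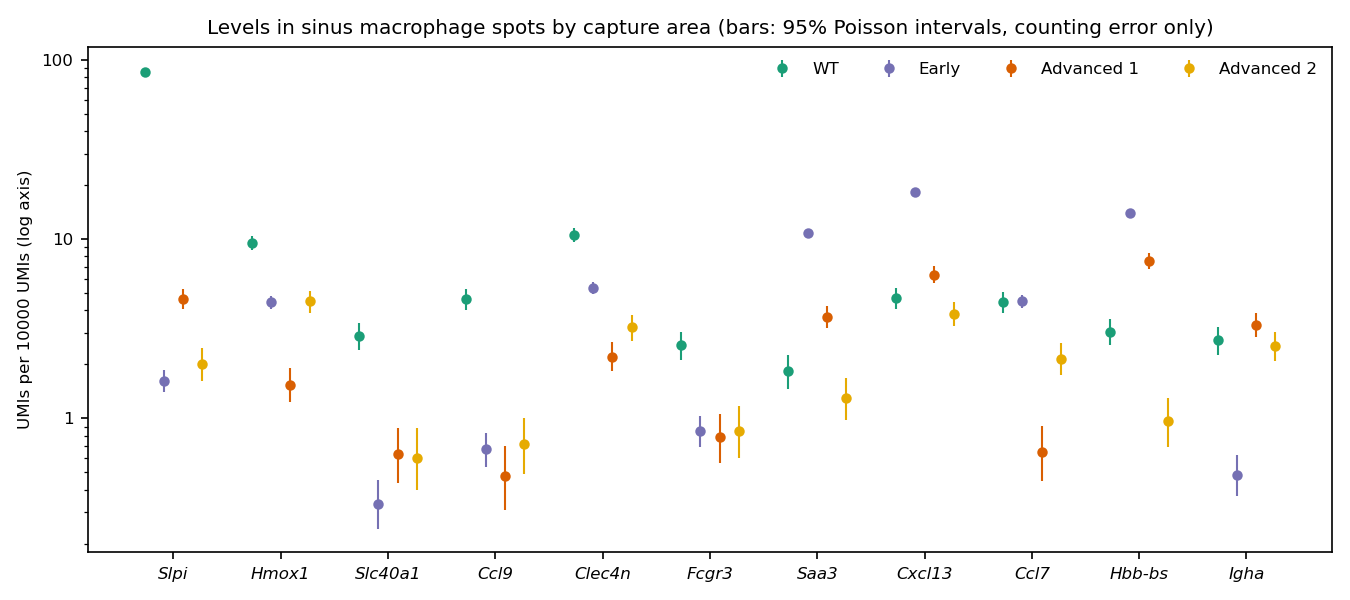
Level of genes in the sinus macrophage spots of each capture area, in UMIs per 10000 UMIs on a log axis, with 95% Poisson intervals as bars, which cover counting error only. Saa3 and Cxcl13 are highest on Early (10.8 and 18.2), Slpi, Hmox1 and Slc40a1 are highest on WT (85.1, 9.54 and 2.87) and Igha is lowest on Early (0.484).

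Against WT, 12 genes were higher in the sinus macrophage spots of the Advanced areas (0.133%) and 51 lower (0.564%) of 9035 tested, and 738 had an unadjusted p under 0.05. The contrast shares its Advanced areas with the one above, and rests on 1 WT area of 41 spots. Macrophage genes were among the lower ones, with 4 of 14 identity genes (Clec4n, Adgre1, Spic and Cd14), 3 of 13 iron and haem genes (Hmox1, Slc40a1 and Spic), 2 of 12 complement genes, 1 of 6 Fc receptors and 3 of 15 chemokines. The medians of these lists were -0.64, -0.91, -0.27, -1.09 and -0.35, against 0.02 over all genes. Because the top 15% was taken within each area, the spots compared were not equally rich in macrophage transcripts. Their median score was 0.858% on WT, 0.354% on Advanced area 1 and 0.656% on Advanced area 2. How far this entered the lower values was not tested. With the top 20% of spots, 0 genes passed in either direction (618 at an unadjusted p under 0.05), and DESeq2 called 0 higher and 4 lower.

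Hmox1 stood at 9.54 UMIs per 10000 in the sinus macrophage spots of WT, 4.43 on Early, 1.54 on Advanced area 1 and 4.49 on Advanced area 2. Its log2 difference between Advanced and WT was -1.85 ± 0.40 (edgeR adjusted p = 0.00115), with -2.78 against Advanced area 1 alone and -1.28 against Advanced area 2 alone. Slc40a1 stood at 2.87, 0.333, 0.630 and 0.604 (-2.39 ± 0.34). The 3 TNF-Tg areas lay below WT for both genes, and the other spots showed the same order for Hmox1 against WT, at 1.48, 0.655, 0.462 and 0.747. Adgre1 stood at 2.02, 0.706, 0.706 and 0.559 (-1.84 ± 0.35) and Fcgr3 at 2.55, 0.849, 0.782 and 0.849 (-1.82 ± 0.35). For these the TNF-Tg areas were close together and WT stood alone. In the other spots WT was also the highest. Adgre1 stood there at 0.830, 0.198, 0.299 and 0.267, Fcgr3 at 0.887, 0.463, 0.502 and 0.476, and Slc40a1 at 0.822, 0.174, 0.394 and 0.197. Whether a difference from WT was particular to the sinus macrophage spots was not tested. In the sinus macrophage spots Clec4n ran at 10.5, 5.35, 2.21 and 3.22 (-2.13 ± 0.40), with Early between WT and Advanced. Lyve1 had a log2 difference of -1.41 ± 0.39 and an edgeR adjusted p of 0.0493, and it stood at -1.01 against Advanced area 2 alone.

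The chemokines Ccl6 and Ccl9 stood at 5.74 and 4.61 on WT and between 0.477 and 1.14 on the TNF-Tg areas (log2 -2.85 ± 0.36 and -3.13 ± 0.36). Slpi went from 85.1 on WT to 1.63, 4.64 and 2.01 on Early, Advanced area 1 and Advanced area 2 (-4.84 ± 0.52, edgeR adjusted p = 8.46e-17). In the other spots it stood at 50.8, 1.05, 3.15 and 1.57, so WT was far above the TNF-Tg areas in both kinds of spot. Gja1, encoding connexin 43, stood at 1.47, 0.167, 0.191 and 0.201 (-3.07 ± 0.44), and Adamts5, a matrix protease, at 1.15, 0.135, 0.191 and 0.0894 (-3.15 ± 0.47). Tm4sf20 had 33 UMIs on WT, 2 on Early and 0 on both Advanced areas. In the higher direction, Sfrp2 stood at 0.106, 0.500, 1.89 and 0.402 (3.27 ± 0.57) and Hba-a2 at 0.850, 5.12, 6.98 and 1.39 (2.14 ± 0.47), each with Advanced area 1 well above Advanced area 2, against which alone the differences were 1.71 and 0.51. Il9r had 1, 61, 36 and 27 UMIs, Ttn 1, 50, 24 and 27, Ltf 2, 19, 43 and 11 and Scn4b 0, 78, 13 and 8, so that WT was nearly empty for all 4.

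Early and WT had 1 area each and were not tested against each other. Of the genes lower in Advanced than in WT, Slc40a1, Adgre1, Fcgr3, Slpi and Gja1 were also below WT on Early, by the values above. Marco, Timd4 and Csf1r stood at 56.8 on Early against 69.9 on WT, 12.0 against 9.04 and 8.31 against 7.10.

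Finally, it was tested whether the change from Early to Advanced differed between the sinus macrophage spots and the other spots of the same areas. Of 10481 genes, 1 had a larger change upward in the sinus macrophage spots (0.00954%) and 6 a larger change downward (0.0572%), and 382 had an unadjusted p under 0.05. Ccl7 stood at 4.50 in the sinus macrophage spots and 0.791 in the others on Early, at 0.649 and 0.414 on Advanced area 1 and at 2.15 and 0.985 on Advanced area 2, so its excess in the sinus macrophage spots was smaller in advanced arthritis (log2 -1.56 ± 0.30, edgeR adjusted p = 0.000845). Ccl2 (log2 -1.24 ± 0.29), Ccl20 (-2.63 ± 0.63), Nupr1 (-1.49 ± 0.34), Hba-a1 (-2.15 ± 0.31) and Hbb-bs (-2.28 ± 0.35) showed the same direction, and Igha (1.94 ± 0.35) the opposite one. DESeq2 called 0 genes in this comparison (2 at an unadjusted p under 0.05), with the top 20% of spots 0 were called upward and 12 downward, and with the top 10% 1 upward and 0 downward, where Hba-a1 was at 0.25.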

How the data were processed

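Spatial transcriptomics was performed by the authors on 10 μm PLN sections placed on the 4 capture areas of a single slide, permeabilized for 12 minutes. Per the labels, the submitters' processing notes name Space Ranger 1.1.0, Seurat 4.0.3 and R 4.1.1 and the build mm10 (GRCm38). The deposited files hold raw UMI counts per gene and spot under tissue, with no normalization.

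The counts were used as deposited. Spots with at least 1000 UMIs were ranked by the score within each area, the top 15% were taken, and counts were summed per area and class, since spots are not replicates. The 8 score genes were left out of tests and library sizes. Sums were compared with the quasi-likelihood test of edgeR 4.0.16 (R 4.3.3), with filterByExpr, TMM factors and Benjamini-Hochberg adjustment, called at an adjusted p under 0.05. Area was a block between classes. Between conditions the groups WT, Early and Advanced entered 1 fit of 4 sums, with 1 residual degree of freedom, in which the single WT and Early areas are assumed to vary like the Advanced areas. The paper divides the Advanced nodes over replicate tissue blocks and does not say which mice each block held. Whether the spread of the Advanced areas includes differences between animals is thus not settled here, and WT and Early had no replicate area. In these contrasts the error of a gene came mostly from the spread shared over all genes. Its own Advanced areas entered little. Errors are SE of the log2 difference. Fitted values of genes with 0 to 3 counts in a group are not given as folds. DESeq2 1.42.0 and other UMI minimums, shares of spots, scores, filters and left-out areas served as alternatives. The fits were also run on simulated counts drawn with the same spread for every gene. Such counts cannot show how the fits handle genes whose areas disagree.

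The members, gene lists and named genes were chosen with earlier results of these data known. Named were, for sinus macrophage against other spots, the 12 largest called differences in each direction with at least 200 UMIs and 1 direction on 4 areas, the most abundant and the called genes of the lists, and the largest called differences of the other contrasts. Of these, those that describe each list were printed. A level is a share of a spot's UMIs, so a higher share of some genes lowers that of others. Genes of symbols that name more than 1 row (Ccl19, Ccl21a) were not counted in lists, and Mx1, Fdcsp and Clec7a were not analysed here. Some genes stand on more than 1 list, among them Marco, Timd4, Spic, Csf1r, Stab1 and Cxcl13, so the counts of different lists are not independent. Coordinates are from GENCODE M21 on GRCm38 and promoters from RefSeq on GRCm38.p6. Figures were drawn with matplotlib 3.10.9. Results of some genes of the lists are not reported here.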

Additional observations from a re-analysis of the deposited data

Results flagged for a closer look

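The change from Early to Advanced differed between the sinus macrophage spots and the other spots of the same areas for 7 genes, by the test of the difference itself (edgeR's quasi-likelihood test, 1 residual degree of freedom). Each value is the log2 change in the sinus macrophage spots minus that in the other spots. It was -2.15 for Hba-a1, -2.28 for Hbb-bs, -1.56 for Ccl7, -1.49 for Nupr1, -1.24 for Ccl2, -2.63 for Ccl20 and 1.94 for Igha.

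Hbb-bs went with 1 area. Its ratio of sinus macrophage to other spots was 1.90 on WT, 2.54 on Early, 1.19 on Advanced area 1 and 0.149 on Advanced area 2. Ccl20 rested on few UMIs, with 4 and 0 in the sinus macrophage spots of the Advanced areas. The change of Igha came with Early, where the sinus macrophage spots held 61 UMIs of it, at 0.484 per 10000 against 2.35 in the other spots, while on Advanced area 2 they stood above the others. No group had more than 2 areas, so no single area could be tested as an outlier.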

How the results depend on the processing

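Sinus macrophage against other spots. The numbers of genes higher and lower, 880 and 488, became 475 and 178 with DESeq2 and 161 and 71 among inner spots only, an alternative added after the data had been seen, where fewer genes were tested. Leaving out 1 area at a time gave 436 to 846 and 194 to 498. Of 118 called genes named, 101 to 114 passed in the same direction without any 1 area, 96 of 117 with DESeq2 and 50 of 95 among inner spots. Pf4, Slpi and Igha, which had passed, changed sign under a setting, Pf4 with the score of 5 genes without C1q (-0.025), Slpi among inner spots (-0.076) and Igha with the C1q score (0.010). The rest of the sign changes were of genes that had not passed with the settings used in the report. They were Fth1 without WT (-0.12, range over left-out areas -0.12 to 0.39), Lyz2 without WT and without Early (-0.012 and -0.037, range -0.037 to 0.21), Cxcl12 among inner spots (-0.19), Clu among inner spots (0.26) and without Advanced area 2 (0.035, range -0.24 to 0.035), Igkc with the top 20% (0.070), the C1q score (0.027), the score over UMIs without immunoglobulin genes (0.15), other spots that touch no member (0.070) and edge spots (0.11), and Hbb-bs with the minimum of 2000 UMIs (-0.55), without WT (-0.016), without Early (-0.30, range -0.30 to 0.90), the top 10% (-0.61) and the score of 5 genes (-1.30), of which the last pair of settings passed it as lower. The 42 alternatives for score genes left out of their own score made no difference to direction or call.

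Conditions and position. For Advanced against Early, the 6 genes higher and 16 lower became 1 and 1 with the minimum of 2000 UMIs, 0 and 0 with the top 20%, 0 and 1 with the score over UMIs without immunoglobulin genes, 1 and 0 with DESeq2, and 1 and 6 with the spread taken from both kinds of spot, and 8 were lower with the top 10%. Hbb-bs was at 0.029 with the minimum of 2000 UMIs, and C6 changed from 3.86 to -2.52 without Advanced area 2 and 4.95 without Advanced area 1. For Advanced against WT, the 12 higher and 51 lower became 0 and 0 with the top 20% and 0 and 4 with DESeq2, and 3, 4 and 4 were higher with the minimum of 2000 UMIs, the score without immunoglobulin UMIs and the joint spread. In the difference between kinds of spot, the 1 upward and 6 downward genes became 0 and 0 with DESeq2 and 0 and 12 with the top 20%, and 0 were downward with the top 10%, where Hba-a1 was at 0.25. For edge against inner spots, the 3 and 3 became 0 higher with DESeq2 and 19 higher with no filter on low counts, and 0 to 21 higher and 0 to 4 lower on leaving out an area. The cause of these changes was not tested. No paired analysis was possible between conditions because only Advanced had more than 1 area, and replicate numbers pair no areas.

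Depth limits genes under 1 UMI per 10000, which rest on few UMIs in the sums of the sinus macrophage spots.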

Other observations

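Spots under tissue with fewer than 1000 UMIs, which numbered 560 on WT, 888 on Early, 1436 on Advanced area 1 and 1178 on Advanced area 2, entered no comparison. They were also left out of the shares of spots by position and by neighbour. Their 8 score genes together stood at 17.8 UMIs per 10000 on WT, 8.96 on Early, 8.38 on Advanced area 1 and 15.8 on Advanced area 2, beside 25.7, 11.8, 11.7 and 15.4 in the other spots above the minimum and 86.7, 58.1, 40.7 and 74.1 in the sinus macrophage spots. On Advanced area 2 the 95% interval of the shallow spots, 14.5 to 17.3, held the level of the other spots, and on the remaining areas it lay below it. Marco stood at 11.6, 12.5, 7.21 and 14.9 in the shallow spots.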
